A study of Mus musculus with 10 samples.

Results

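Pigment of mouse hair is made by a small set of genes that are active mainly in melanocytes, and 10 of them were followed in RNA-Seq of treated back skin. They were chosen by gene symbol, with earlier results of these data known. They comprise the tyrosinase family (*Tyr*, *Tyrp1* and *Dct*) and proteins of the melanosome body and membrane (*Pmel*, *Mlana* and *Gpr143*). The others are melanosome transporters (*Slc45a2*, *Oca2* and *Slc24a5*) and the transcription factor *Mitf*. The 10 genes are among 24452 named genes in the count table, and all 10 were among the 15543 genes that passed the filter on low counts. The comparison was between WT mice and *Zfp36*ΔARE knockin mice on the C57BL/6 background, 5 libraries each. In the knockin mice an AU-rich instability motif is missing from the 3′-UTR of the endogenous *Zfp36* gene in every cell of the body, and *Zfp36* encodes TTP, a protein that binds and destabilizes mRNAs. The controls were littermates without the deletion. All 10 mice, young adults at the start, were shaved on the back, checked for lack of hair growth, painted with a single dose of 400 nmol of the mutagen DMBA and then repeatedly with 10 nmol of the tumor promoter TPA for 20 weeks, and full-thickness treated skin without tumor was taken at the end.

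Melanocytes make melanin inside melanosomes, organelles related to lysosomes, in which PMEL first forms a fibrillar scaffold and tyrosinase and its relatives then oxidize tyrosine to pigment on it. In haired mouse skin most melanocytes sit in the hair follicle. They synthesize pigment while the follicle is in its growth phase, hand melanosomes to the keratinocytes of the hair shaft that arise from the hair matrix, and stop when the follicle regresses. MITF is the basic helix-loop-helix leucine zipper factor that activates most pigment genes of the lineage, and it is also made in other cells, such as mast cells.

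Libraries held between 19595035 and 36419573 counts, with overlapping ranges in the groups. The targeted gene went with the labels in each library, with a mean ± SD of 2152 ± 277 for *Zfp36* in WT skin, 5426 ± 766 in *Zfp36*ΔARE skin and no overlap between the groups, in normalized counts. A normalized count is the count scaled by edgeR's TMM factors to the mean effective library size. *Zfp36*ΔARE replicates 2 to 5 had 3349 to 4262 counts of 4 Y-linked genes (*Uty*, *Kdm5d*, *Eif2s3y* and *Ddx3y*) in sum, whereas *Zfp36*ΔARE replicate 1 and every WT library had at most 1. Sex and genotype therefore cannot be told apart in most of the comparison. The WT libraries differed among themselves in hair keratins, which are described with the pigment genes below. Each library is the RNA of a whole piece of skin, so fewer melanocytes and less pigment RNA per melanocyte cannot be told apart.

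MITF and related factors bind short E-box sequences, and the letters CATGTG, and the longer TCATGTG that contains them, are known from the start regions of pigment genes. RefSeq sequences on GRCm38.p6, from 250 bases before to 50 after the start, were matched for 6 of the 10 genes (*Tyr*, *Tyrp1*, *Dct*, *Oca2*, *Slc24a5* and *Mitf*, with 3 starts for *Mitf* and 8 promoters in all). *Pmel*, *Mlana*, *Slc45a2* and *Gpr143* were not matched. CATGTG, read on either strand, was present in promoters of 5 of the 6 genes, against 14.2% of 32851 promoters and 15.9% of 27025 genes. TCATGTG was present in *Tyr*, *Tyrp1*, *Dct* and *Slc24a5*, against 3.77% of promoters. CACGTG, the palindromic E-box, was in 0 of the 8 promoters, against 7.15% of all. The matches are shown because *Mitf* and the genes below were measured in the same libraries. A match describes letters and does not show that a factor bound there. Each line is written on the strand of the gene, capitals mark the match, and CACATG is CATGTG on the opposite strand.
*Tyr*, chr7:87493513-87493563, minus strand, match 21 bases before the start: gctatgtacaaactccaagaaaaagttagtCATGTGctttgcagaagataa
*Tyrp1*, chr4:80834137-80834196, plus strand, match 46 bases before the start: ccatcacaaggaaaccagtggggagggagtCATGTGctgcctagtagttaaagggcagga
*Dct*, chr14:118052367-118052426, minus strand, match 150 bases before the start: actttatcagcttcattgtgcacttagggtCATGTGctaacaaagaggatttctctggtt
*Dct*, chr14:118052449-118052496, minus strand, match 232 bases before the start: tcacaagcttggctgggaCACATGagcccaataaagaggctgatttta
*Slc24a5*, chr2:125068084-125068126, plus strand, match 13 bases before the start: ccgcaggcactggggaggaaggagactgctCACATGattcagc
*Oca2*, chr7:56239543-56239602, plus strand, match 186 bases before the start: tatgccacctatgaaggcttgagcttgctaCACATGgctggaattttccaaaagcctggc
The upstream match of *Dct*, that of *Slc24a5* and that of *Oca2* read CATGTG on the strand opposite to the gene, and the others read it on the strand of the gene. *Mitf*, with 3 starts, had neither CATGTG nor CACGTG in these windows.

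Pigment genes were higher in *Zfp36*ΔARE skin. All 10 had a Benjamini-Hochberg adjusted p below 0.05 in edgeR's quasi-likelihood fit, where 15.3% of all tested genes were higher by the same rule. With the added condition of a fold change over 2, 8 of the 10 were called higher and 0 lower, against 1.67% of tested genes called higher and 6.64% called lower. The count rested on single libraries, since it was 4 without *Zfp36*ΔARE replicate 2 and 5 without WT replicate 2 or *Zfp36*ΔARE replicate 5. The 10 genes were chosen with earlier results of these data known, and 9 of them moved together from mouse to mouse. Their calls are therefore not independent of each other or of that choice. Leaving out each of the 10 libraries in turn, *Tyr*, *Mlana* and *Gpr143* were called every time, *Tyrp1* and *Slc45a2* in 9 fits, *Pmel* and *Slc24a5* in 5 and *Oca2* in 4. Every *Zfp36*ΔARE library lay above every WT library for 5 of the 10 (*Tyr*, *Tyrp1*, *Pmel*, *Mlana* and *Mitf*), as it did for 11.2% of tested genes. The median log2 fold change of the 10 genes was 1.34 (range 0.64 to 1.72), and that of all tested genes was 0.0076. Together the 10 genes took between 0.0183% and 0.0573% of the counts of a WT library and between 0.0534% and 0.0978% of those of a *Zfp36*ΔARE library.

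**Figure D1:**
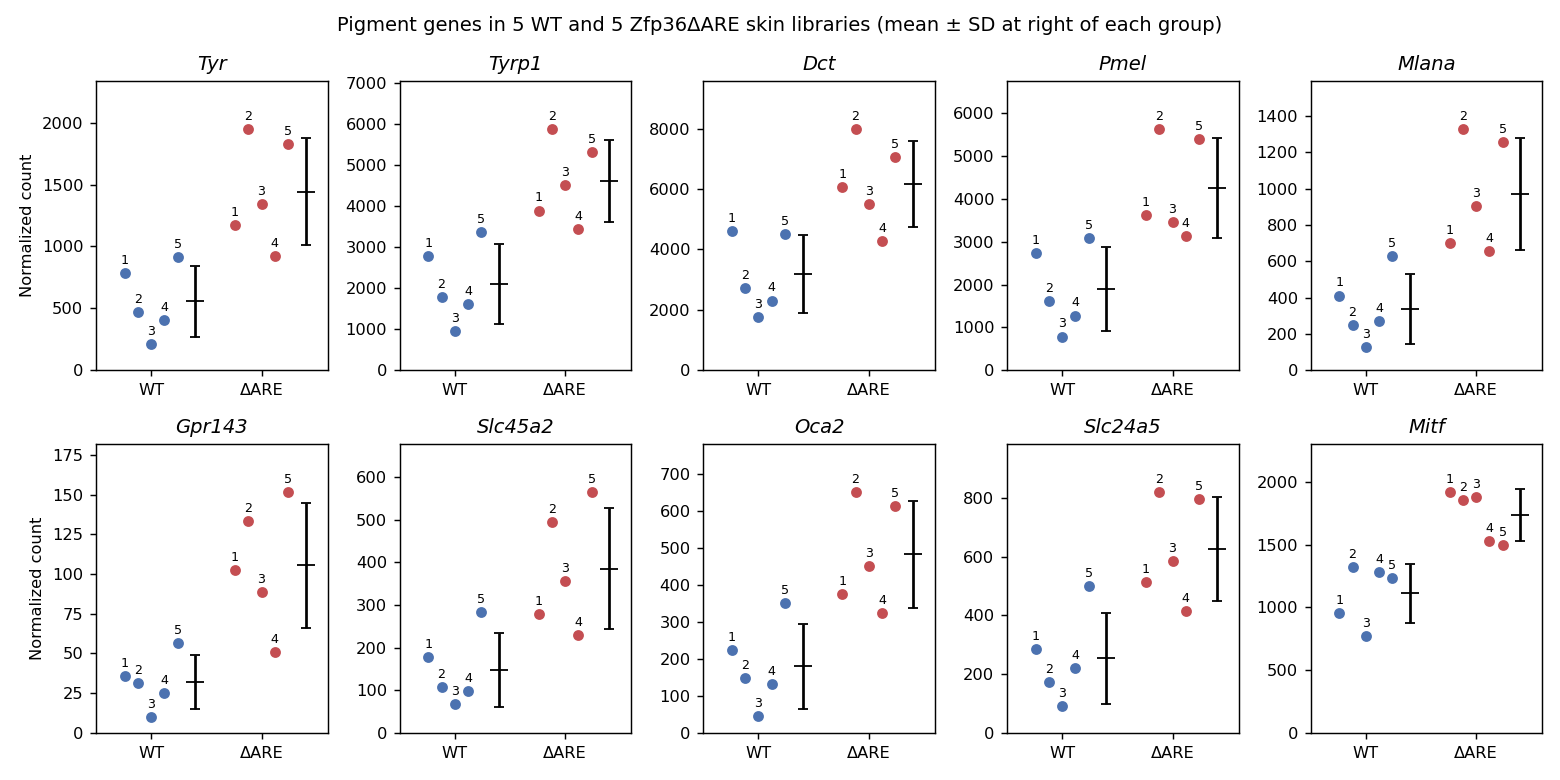
Normalized counts (y axis, linear from 0) of the 10 pigment genes in 5 WT (blue) and 5 Zfp36ΔARE (red) libraries, with the replicate number above each point and the group mean ± SD to the right of each group. WT replicate 3 was the lowest library in all 10 panels, and Zfp36ΔARE replicates 2 and 5 were the highest in each panel other than Mitf.

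Within the tyrosinase family the enzymes that act on the melanin precursors rose together, with the smallest change for *Dct*. *Tyr* (Entrez 22173, chr7:87424771-87493512, minus strand) encodes tyrosinase, the rate-limiting enzyme of melanin synthesis. It had 788, 469, 209.9, 404 and 911 normalized counts in WT replicates 1 to 5 and 1174, 1947, 1346, 921 and 1827 in *Zfp36*ΔARE replicates 1 to 5. The lowest *Zfp36*ΔARE library, replicate 4, stood just above the highest WT library, replicate 5. The log2 fold change of *Tyr* was 1.37 ± 0.36 (SE, adjusted p = 0.0190, edgeR). *Tyrp1* (Entrez 22178, chr4:80834123-80851719, plus strand) encodes a melanosomal enzyme that is required for black eumelanin and stabilizes tyrosinase. It had 2789.6, 1781, 946, 1619.9 and 3359.6 normalized counts in WT and 3892, 5872, 4508, 3440.5 and 5311 in *Zfp36*ΔARE libraries. The groups did not overlap, again with WT replicate 5 and *Zfp36*ΔARE replicate 4 nearest to each other, and the log2 fold change was 1.13 ± 0.30 (SE, adjusted p = 0.0201, edgeR). *Dct* (Entrez 13190, chr14:118012790-118052244, minus strand) encodes dopachrome tautomerase, which acts after tyrosinase and is made by melanocyte precursors as well. It had 4593, 2726, 1764, 2308 and 4497 normalized counts in WT and 6062, 7979, 5500.2, 4283 and 7060.5 in *Zfp36*ΔARE libraries. *Zfp36*ΔARE replicate 4 lay below WT replicates 1 and 5, so the groups overlapped. *Dct* rose by 0.96 ± 0.27 on the log2 scale (SE, adjusted p = 0.0243, edgeR), a 1.94-fold change that missed the fold threshold.

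The genes of the melanosome body and membrane were all called higher. *Pmel* (Entrez 20431, chr10:128704195-128720238, plus strand) encodes the protein whose fragments form the fibrils on which melanin is laid down. It had 2743, 1614, 787, 1277 and 3077 normalized counts in WT and 3629, 5628, 3469, 3124 and 5393 in *Zfp36*ΔARE libraries. The highest WT library, replicate 5, came within a few percent of the lowest *Zfp36*ΔARE library, replicate 4, without overlap. Its log2 fold change was 1.16 ± 0.35 (SE, adjusted p = 0.0291, edgeR). *Mlana* (Entrez 77836, chr19:29697824-29708634, plus strand) encodes a small membrane protein that takes part in PMEL processing. It had 412, 250.4, 127, 274 and 629 normalized counts in WT and 702, 1328, 905, 657 and 1255 in *Zfp36*ΔARE libraries. The *Zfp36*ΔARE libraries were all above WT, and replicates 2 and 5 stood well above the other 3. The log2 fold change of *Mlana* was 1.52 ± 0.38 (SE, adjusted p = 0.0156, edgeR). *Gpr143* (Entrez 18241, chrX:152781921-152808646, plus strand) encodes a receptor of the melanosome membrane that controls melanosome number and size. It had 35.9, 31.5, 9.76, 25.2 and 56.8 normalized counts in WT and 103, 133, 88.9, 50.7 and 152 in *Zfp36*ΔARE libraries. *Zfp36*ΔARE replicate 4 lay below WT replicate 5 and above the other WT libraries. *Gpr143* was the least abundant of the 10, with 8 to 147 raw counts per library, and had the largest log2 fold change of the 10 in this fit (1.72 ± 0.40, SE, adjusted p = 0.0125, edgeR).

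The 3 melanosome transporters moved by similar amounts. *Slc45a2* (Entrez 22293, chr15:11000721-11029233, plus strand) and *Oca2* (Entrez 18431, chr7:56239760-56536518, plus strand) encode membrane proteins that keep the melanosome lumen from becoming acidic, which tyrosinase needs. *Slc45a2* had 179, 108, 67.1, 98.0 and 284 normalized counts in WT and 279.5, 494, 357, 229.6 and 566 in *Zfp36*ΔARE libraries. WT replicate 5 lay above *Zfp36*ΔARE replicates 1 and 4, and the other WT libraries lay below all 5. Its log2 fold change was 1.39 ± 0.39 (SE, adjusted p = 0.0226, edgeR). *Oca2* had 223, 148, 45.1, 131 and 351 normalized counts in WT and 375, 651, 450.2, 323 and 613 in *Zfp36*ΔARE libraries. The overlap was limited to WT replicate 5 and *Zfp36*ΔARE replicate 4. The log2 fold change of *Oca2* was 1.42 ± 0.43 (SE, adjusted p = 0.0292, edgeR). *Slc24a5* (Entrez 317750, chr2:125068124-125088677, plus strand) encodes a potassium-dependent sodium/calcium exchanger. It had 285, 173, 90.3, 220.3 and 499 normalized counts in WT and 514, 820.1, 586, 415 and 796 in *Zfp36*ΔARE libraries. Again only WT replicate 5 and *Zfp36*ΔARE replicate 4 crossed, and the log2 fold change was 1.30 ± 0.39 (SE, adjusted p = 0.0275, edgeR). In the GENCODE annotation, 39.5% of the exon bases of *Slc24a5* overlap exons of *Myef2* on the opposite strand, and no source used here says if fragments were counted by strand, so the counts of *Slc24a5* are uncertain. *Myef2* itself averaged 241 ± 37.4 and 197 ± 27.7 normalized counts in WT and knockin skin, and its difference did not pass the test (log2 fold change -0.29, adjusted p = 0.121, edgeR). *Pmel* overlaps *Cdk2* over 1.48% and *Dgka* over 4.58% of its exon bases, and the other 8 genes overlap no exon of another gene.

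*Mitf* (Entrez 17342, chr6:97807052-98021349, plus strand) had the smallest log2 fold change of the 10 and the smallest adjusted p. It had 953, 1319, 772, 1284 and 1231 normalized counts in WT and 1921, 1856, 1877, 1531 and 1495 in *Zfp36*ΔARE libraries. The groups did not overlap. The order of libraries differed from that of the other 9 genes, since WT replicate 1 was second lowest instead of among the highest in WT and *Zfp36*ΔARE replicate 5 was the lowest of its group. *Mitf* rose by 0.64 ± 0.15 on the log2 scale (SE, adjusted p = 0.0119, edgeR), a 1.56-fold change below the fold threshold. Mast cells also make *Mitf*, and all 8 mast cell markers in the list were called lower in *Zfp36*ΔARE skin (median log2 fold change -1.73). The part of mast cells in the *Mitf* counts was not tested.

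Levels per length placed *Dct*, *Pmel*, *Tyrp1* and *Mlana* above *Mitf*, *Tyr* and the transporters. On the RPKM scale with the deposited gene lengths, *Dct* stood first in WT at 52.6 ± 21.4 (SD, n = 5), followed by *Pmel* at 33.4 ± 17.2, *Tyrp1* at 28.5 ± 13.1 and *Mlana* at 27.5 ± 15.6. *Mitf* (8.04 ± 1.72), *Slc24a5* (4.87 ± 2.97), *Tyr* (3.45 ± 1.78), *Oca2* (2.16 ± 1.38), *Slc45a2* (1.85 ± 1.09) and *Gpr143* (0.722 ± 0.388) followed. The mean ± SD ranges of neighbours in this order overlapped at each step, other than that from *Mlana* to *Mitf*. In *Zfp36*ΔARE skin the RPKM level was 102 ± 23.5 for *Dct*, 78.8 ± 25.2 for *Mlana*, 74.7 ± 20.6 for *Pmel* and 62.6 ± 13.6 for *Tyrp1*, and ran from 12.6 ± 1.48 for *Mitf* down to 2.39 ± 0.891 for *Gpr143*. The deposited lengths of *Dct* (2263 bases) and *Mlana* (461 bases) are far shorter than their exon bases in GENCODE (5895 and 1057). With the GENCODE lengths, *Pmel* led in WT at 31.0 ± 15.9 RPKM, *Tyrp1* had 27.8 ± 12.8, *Dct* 20.2 ± 8.22 and *Mlana* 12.0 ± 6.79, and *Mitf* 6.72 ± 1.44, with overlapping mean ± SD ranges of *Mlana* and *Mitf*. The order of the first 4 genes and their step down to *Mitf* thus depend on the transcript models.

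Apart from *Mitf*, the genes rose and fell together from mouse to mouse inside each genotype. WT replicate 3 was the lowest of all 10 libraries for 10 of 10 genes. For the 9 genes other than *Mitf*, WT replicates 1 and 5 were the highest in WT, *Zfp36*ΔARE replicate 4 was the lowest of its group, and *Zfp36*ΔARE replicate 2 or 5 was the highest. As a description over the 10 libraries, the deviations of log2(CPM + 1) from the group means correlated with r between 0.86 and 0.99 (median 0.95) in the 36 pairs that leave out *Mitf*, and with r between 0.23 and 0.47 (median 0.39) in the 9 pairs with *Mitf*. The points share their libraries, and thus any difference in the piece of skin that was sampled.

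**Figure D2:**
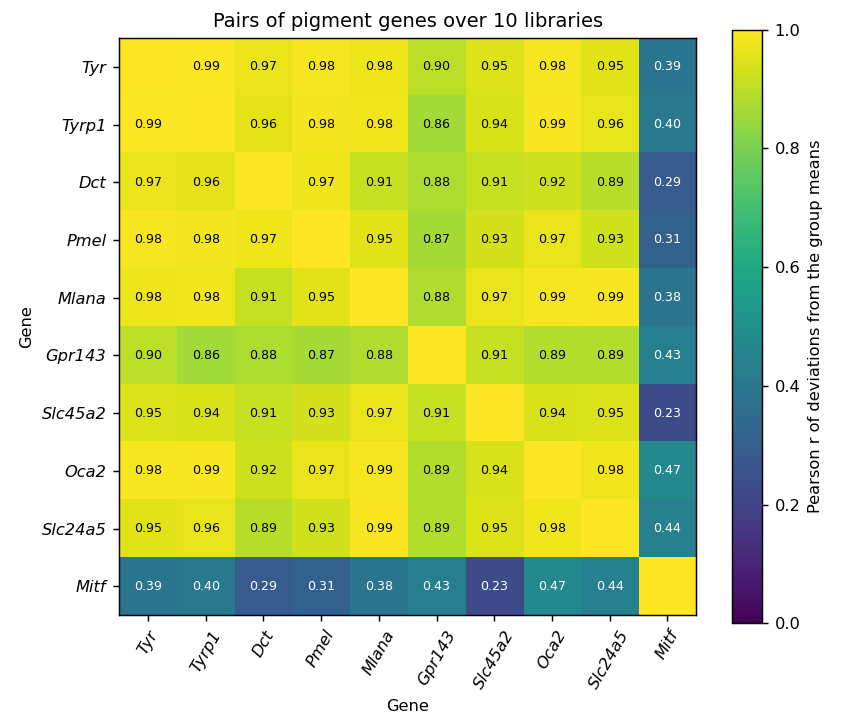
Pearson r between each pair of pigment genes over 10 libraries, computed on log2(CPM + 1) minus the mean of the genotype group, printed in each cell and shown by colour from 0 to 1 (the diagonal is each gene with itself). The 36 pairs without Mitf lie between 0.86 and 0.99, and the row and column of Mitf lie between 0.23 and 0.47.

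Whether the other 9 genes rose by more than *Mitf* was tested within libraries, an analysis chosen after these values were seen. The log2 ratio to *Mitf* was higher in *Zfp36*ΔARE skin for 9 of 9 genes in the group means, by 0.36 to 1.17 (median 0.83). In exact two-sided permutation tests of the 10 libraries the unadjusted p ran from 0.0317 to 0.270, and adjusted over the 29 ratio tests that were run it ran from 0.230 to 0.313. The larger rise of these genes than of *Mitf* thus did not pass the test. The smallest p that this exact permutation test can give is 0.00794. Over 29 tests it adjusts to 0.230 when 1 gene alone reaches it. A difference confined to 1 gene or a few genes could not pass, since several tests would have to reach that smallest p together.

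The pigment genes were then set against the hair content of each piece of skin. The mean log2(CPM + 1) of 13 hair shaft keratins, the structural proteins of the growing hair, was 5.06, 7.36, 2.38, 7.74 and 7.66 in WT replicates 1 to 5 and 8.84, 9.15, 9.74, 8.76 and 8.50 in *Zfp36*ΔARE replicates 1 to 5. WT replicates 1 and 3 were far below the other libraries, and the groups did not overlap. The same mean over the 10 pigment genes was 4.60, 4.10, 3.26, 4.01 and 4.99 in WT and 5.26, 5.83, 5.37, 4.95 and 5.76 in *Zfp36*ΔARE libraries. WT replicate 3 was the lowest in both measures, whereas WT replicate 1 had few hair keratins and, for a WT library, much pigment RNA. Between the groups the pigment mean differed by 1.24 and the hair keratin mean by 2.96 log2 units. Of the 13 keratins, 12 had every *Zfp36*ΔARE library above WT, 4 were called higher by edgeR and 9 did not pass its test, whereas DESeq2 called 12. The 9 keratins and related proteins of the inner root sheath, the sleeve that guides the growing hair, had a median log2 fold change of 1.38 with 0 called by edgeR (adjusted p 0.0708 to 0.151, 7 with an unadjusted p below 0.05), 1 by limma-voom and 4 by DESeq2.

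Over the 10 libraries, log2(CPM + 1) of each pigment gene rose with the hair shaft mean, with Pearson's r between 0.69 (*Dct*) and 0.95 (*Mitf*) and Spearman's rho between 0.67 and 0.93. Permutation p-values (100000 resamples, two-sided), adjusted over the 10 genes, were 0.0004 to 0.0231 for r and 0.0046 to 0.0389 for rho. Without WT replicates 1 and 3, the libraries farthest from the median hair shaft mean, r was between 0.67 and 0.90. Both measures differed between the groups, and inside the groups r was lower for each gene. For deviations from the group means, r was between 0.35 (*Dct*) and 0.92 (*Mitf*), and exact permutation tests of libraries within groups gave adjusted p-values between 0.0590 and 0.509, so that 0 of 10 relations passed. Against the inner root sheath mean, *Mitf* again had the closest relation of the 10 genes inside the groups (r = 0.92, adjusted exact permutation p = 0.00486), and the other 9 had r between 0.30 and 0.58 and did not pass the test. Over all 10 libraries these 9 genes had r between 0.64 and 0.78 with the inner root sheath mean (adjusted permutation p 0.0227 to 0.0330) but rho between 0.49 and 0.68, none of which passed (adjusted permutation p 0.0868 to 0.155). Without WT replicates 1 and 3 their r was between 0.37 and 0.52, against 0.94 for *Mitf*, so for the 9 genes this relation rested on those libraries.

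Genes of the hair matrix, the dividing compartment that gives rise to the shaft, were taken as another measure of hair growth after the data were seen. Of 9 transcription factors and signals of the matrix, 5 were called higher in *Zfp36*ΔARE skin and 8 had an adjusted p below 0.05. *Msx2* and *Foxn1*, homeobox and forkhead factors that matrix cells need to build the shaft, rose from 1435 ± 709 to 4004 ± 707 and from 1486 ± 863 to 4190.5 ± 965 normalized counts (log2 fold changes 1.48 and 1.49, adjusted p = 0.0164 and 0.0269, edgeR). *Hoxc13*, which switches on hair keratins, *Lef1*, a nuclear effector of WNT signals, and *Dlx3*, a homeobox factor of hair differentiation, were called too (log2 fold changes 1.29, 1.16 and 1.17). *Ovol1* and *Gata3*, factors of hair and skin differentiation and with *Dlx3* the most abundant of the 9, rose from 3268 ± 1047 to 6007 ± 425 and from 3037 ± 529 to 4315 ± 356, short of the fold threshold (log2 fold changes 0.88 and 0.51, adjusted p = 0.0113 and 0.0116, edgeR). *Shh*, a signal of growing follicles, had 234 ± 86.6 and 288 ± 47.3 normalized counts and did not pass the test (adjusted p = 0.345, edgeR). With the mean of these 9 genes, r over the 10 libraries was between 0.82 and 0.94 for the pigment genes (rho 0.82 to 0.95, adjusted permutation p 0.0008 to 0.0031 for r), and without WT replicates 1 and 3 it was between 0.82 and 0.90. Inside the groups r was between 0.57 and 0.84, with adjusted exact permutation p-values of 0.0962 to 0.196. The 3 hair measures share libraries and were each run over 10 genes, 30 relations in all.

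**Figure D3:**
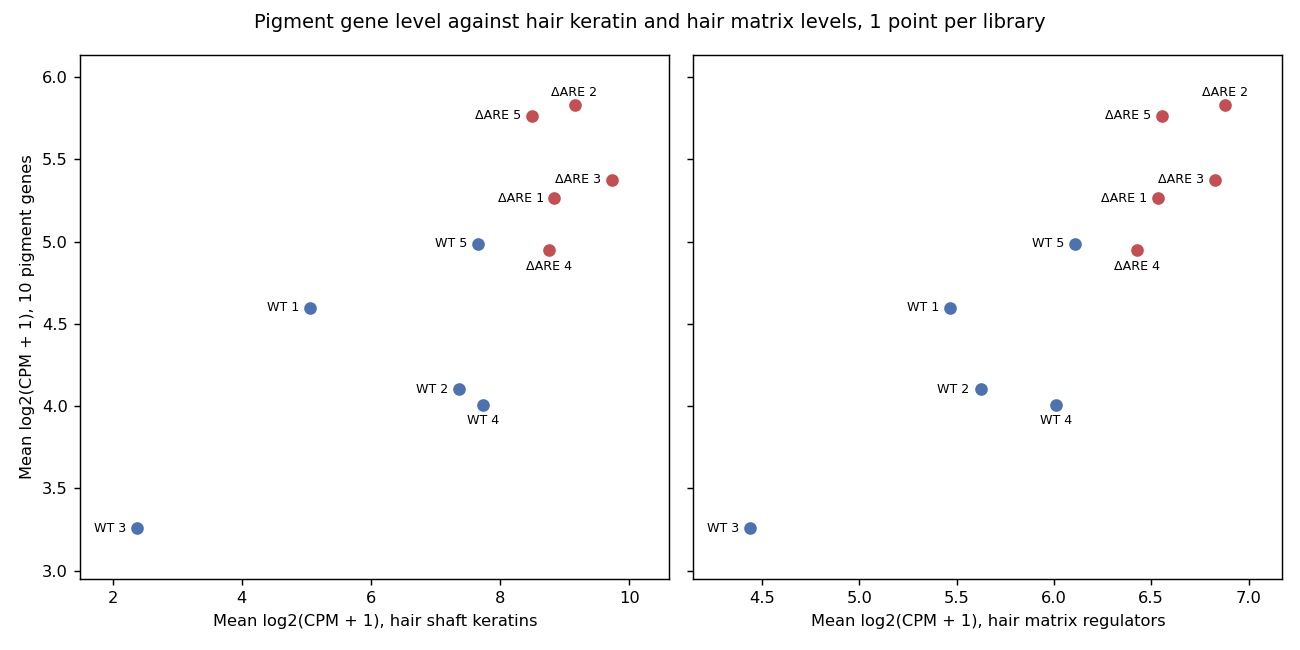
Mean log2(CPM + 1) of the 10 pigment genes (y axis) against that of 13 hair shaft keratins (left) and 9 hair matrix regulators (right), with 1 labelled point per WT (blue) or Zfp36ΔARE (red) library. WT replicate 3 is lowest on each axis, and WT replicate 1 lies well to the left of WT replicate 5 for hair shaft keratins while its pigment mean is the second highest in WT.

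Relative to hair keratins, the group means of pigment RNA were lower in the knockin skin, without passing the test. The log2 level of a pigment gene minus the hair shaft mean was lower in *Zfp36*ΔARE skin for 10 of 10 genes in the group means, by 1.22 to 2.38 log2 units, with exact two-sided permutation p-values that ran from 0.00794, the smallest that 5 against 5 libraries can give, to 0.230 before adjustment and from 0.230 to 0.300 over the 29 ratio tests. The size of this difference rested on WT replicates 1 and 3. Without WT replicate 3 it was -1.52 to -0.60 (median -0.88), and without both it was -0.98 to 0.05 (median -0.18), below 0 for 9 of the 10 genes. Relative to the hair matrix mean the differences were between -0.48 (*Mitf*) and 0.69, with adjusted exact permutation p-values from 0.230 to 0.730, above 0 for 8 of the 10 genes and, without WT replicate 4, for 6. No gene passed the test in either set of ratios. The smallest exact permutation p of 0.00794 adjusts to 0.230 when 1 gene alone reaches it, as *Mitf* relative to hair keratins did. The tests therefore could not show a difference confined to 1 gene or a few genes.

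Fold changes were smaller and calls fewer with the hair shaft mean as a covariate, and also without both WT libraries low in hair keratins. With the hair shaft mean as a covariate in edgeR, 0 of the 10 pigment genes were called, where 0.00643% of tested genes, a single gene, were called higher. The log2 fold changes were 0.24 to 1.09 (median 0.71) and the adjusted p-values 0.318 to 0.639, and *Mitf* alone had an unadjusted p below 0.05 (0.0365). The hair shaft means of the groups do not overlap, so no WT library matched a *Zfp36*ΔARE library in hair content. The covariate fit thus extends the relation to hair seen inside the groups beyond their own ranges, and cannot separate hair content from genotype well. Without WT replicates 1 and 3, the libraries low in hair keratins, 4 of the 10 genes (*Tyr*, *Tyrp1*, *Mlana* and *Gpr143*) were called higher, against 1.24% of tested genes, and the adjusted p-values of the 10 were 0.0177 to 0.0896. Log2 fold changes were then 0.44 for *Mitf* and 0.96 to 1.48 for the other 9, with a median of 1.15 against 1.34 in all libraries. The median was 1.41 without WT replicate 1 alone and 1.13 without WT replicate 3 alone, so the lower median rested on WT replicate 3. Leaving out *Zfp36*ΔARE replicate 2 alone, a library rich in hair keratins, also left 4 genes called.

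**Figure D4:**
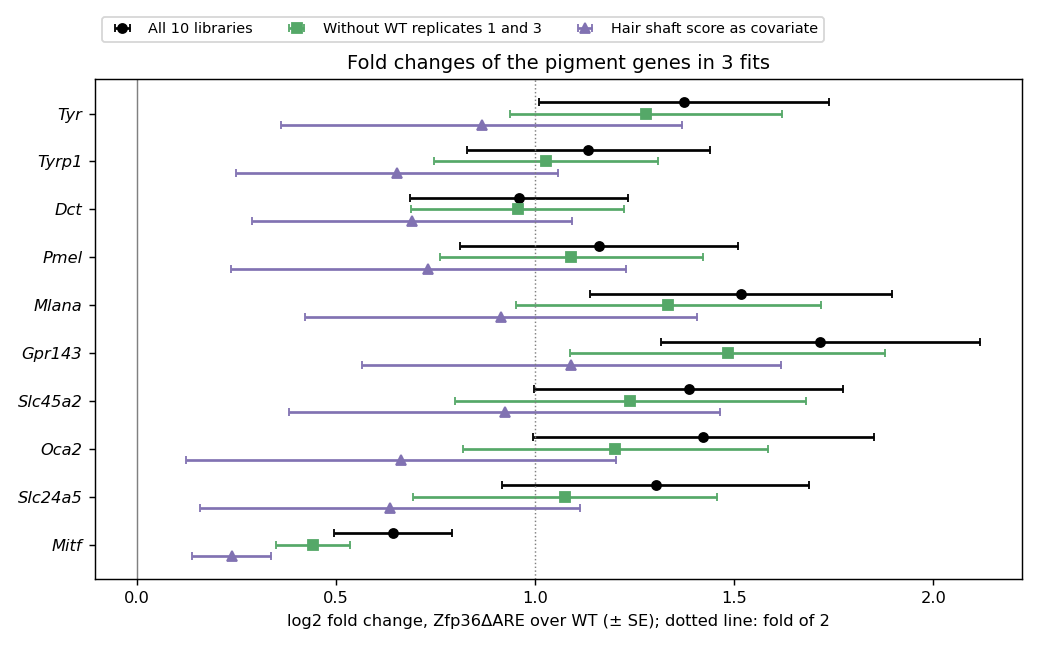
Log2 fold change of Zfp36ΔARE over WT (x axis, bars ± SE) for each pigment gene in 3 edgeR fits: all 10 libraries (black circles), without WT replicates 1 and 3 (green squares) and with the hair shaft mean as a covariate (purple triangles); the dotted line marks a fold of 2. All values lie above 0, and the covariate fit has lower values and, except for Mitf, wider errors than the fit of all libraries.

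The marks of sex were handled in the same way. *Zfp36*ΔARE replicate 1, the library of its group without Y-linked counts, lay above every WT library for 9 of the 10 genes, the exception being *Slc45a2*. That is a value of 1 library, and the share of all tested genes with this order was not computed. In no gene did *Zfp36*ΔARE replicates 2 to 5 all lie above replicate 1. Replicate 4, a library with Y-linked counts, was the lowest of its group in 9 of the 10 genes, the exception being *Mitf*. The genes other than *Mitf* moved together, so these orders are not separate observations. The part that sex had in the values cannot be told apart from that of genotype. With the presence of Y-linked counts as a term in edgeR, the log2 fold changes of genotype were 0.79 to 1.68 (median 0.98) with adjusted p-values of 0.185 to 0.382, and 0 pigment genes and 0 genes of the whole table were called (2 pigment genes, *Mitf* and *Gpr143*, and 3382 genes in all had an unadjusted p below 0.05). That fit compares 1 *Zfp36*ΔARE library with the 5 WT libraries.

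Other genes of the melanocyte lineage were called in part. Of 8 lineage genes, 3 were called higher, 0 lower and 5 not called, with a median log2 fold change of 0.26. *Trpm1*, a cation channel gene of melanocytes, rose from 942 ± 474 to 2463 ± 539 normalized counts (log2 fold change 1.39, adjusted p = 0.0164, edgeR) without overlap of the groups. *Mc1r*, the receptor for melanocyte-stimulating hormone, rose from 96.2 ± 48.2 to 272 ± 121 (log2 fold change 1.49, adjusted p = 0.0187, edgeR), although the groups overlapped, with *Zfp36*ΔARE replicate 1 at 119.9 below WT replicate 5 at 169. *Gpnmb*, which encodes a relative of PMEL made in melanocytes and macrophages, rose from 6639 ± 1033 to 13773 ± 1524 (log2 fold change 1.05, adjusted p = 0.00369, edgeR). All 10 macrophage markers were called lower (median log2 fold change -1.37), and the part of each cell type in the *Gpnmb* counts was not tested. *Kit*, the receptor that melanocytes need for survival and migration, rose by 0.29 on the log2 scale (adjusted p = 0.00885, edgeR), short of the fold threshold. The part of other cells, such as mast cells, in the *Kit* counts was not tested. *Sox10* and *Pax3*, transcription factors upstream of *Mitf*, had 153 ± 28.9 and 168 ± 30.9 and 59.4 ± 15.5 and 64.5 ± 12.9 normalized counts in WT and *Zfp36*ΔARE skin, and neither passed the test (log2 fold changes 0.13 and 0.12, adjusted p = 0.574 and 0.688, edgeR). *Ednrb* and *Erbb3* did not pass either (log2 fold changes 0.22 and 0.24, adjusted p = 0.321 and 0.0690). *Sox10* and *Erbb3* are also made by Schwann cells, of whose 9 markers 1 was called lower and 0 higher (median log2 fold change -0.43). The part of Schwann cells in these counts was not tested.

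The machinery that builds melanosomes, which is shared with other lysosome-related organelles and other cells, had fold changes near 0. Of 25 genes for the BLOC, HPS and AP-3 complexes and related factors, 1 was called higher and 0 lower, and the median log2 fold change was 0.087, with 3 higher and 2 lower by the adjusted p alone. The called gene was *Slc7a11*, the cystine transporter that is needed for pheomelanin, which rose from 289 ± 156 to 762 ± 183 normalized counts (log2 fold change 1.40, adjusted p = 0.0202, edgeR), although its library order differed from that of the pigment genes, with WT replicate 1 at 146 among the lowest. *Ap3b1*, *Ap3d1* and *Cd63*, the most abundant members, had log2 fold changes of 0.01, 0.09 and -0.27 and did not pass the test. Of the 4 genes that move melanosomes along the cell, *Sytl2* was called higher (1322 ± 489 to 2844 ± 615, log2 fold change 1.10, adjusted p = 0.0134, edgeR). *Mlph* and *Myo5a*, the linker and motor of melanosome transfer, rose by less (log2 fold changes 0.59 and 0.42, adjusted p = 0.0111 and 0.0331), and *Rab27a*, the GTPase that recruits them, did not pass the test (0.06, adjusted p = 0.698).

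Among signals that other skin cells send to melanocytes, 9 of 11 listed genes were tested, 1 was called higher and 0 lower. *Corin*, a protease of the dermal papilla that modulates agouti signaling, rose from 307 ± 113 to 651 ± 201 normalized counts without overlap (log2 fold change 1.08, adjusted p = 0.0216, edgeR). *Kitl*, the ligand of KIT, had 892 ± 89.7 and 1197 ± 386 and did not pass the test (adjusted p = 0.131). *Atrn* and *Mgrn1*, which act in the agouti pathway, were the most abundant of the list and did not pass the test (log2 fold changes 0.29 and 0.11, adjusted p = 0.0615 and 0.134, edgeR). *Hgf* and *Fgf2* fell by 0.98 and 0.58 on the log2 scale (adjusted p = 0.0180 and 0.0457, edgeR) within a fold of 2. *Pomc*, the precursor of melanocyte-stimulating hormone, had 15 counts over all 10 libraries and was not tested.

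The composition of the skin pieces differed between the groups in other respects too. Called lower in *Zfp36*ΔARE skin were 9 of 10 skeletal muscle markers, 7 of 10 adipocyte markers and 1 of 9 genes of the follicle bulge. The mean log2(CPM + 1) of the muscle markers was 9.03 to 11.3 in WT and 8.11 to 9.38 in *Zfp36*ΔARE libraries, that of the mast cell markers 4.03 to 5.37 and 2.69 to 3.32, that of the macrophage markers 5.46 to 6.50 and 4.49 to 5.18, and that of the adipocyte markers 7.24 to 8.40 and 6.54 to 6.87. No marker of these lists was at 0 in all libraries. Of 8 basal keratinocyte markers 0 were called by edgeR, DESeq2 or limma-voom, with a median log2 fold change of -0.29, 4 lower by the adjusted p alone and 5 with an unadjusted edgeR p below 0.05. The part that these differences in composition had in the pigment gene values was not tested.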

How the data were processed

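Skin RNA of 5 WT and 5 *Zfp36*ΔARE mice was sequenced, each mouse in its own library. The authors removed low-quality reads, aligned the rest to mm10 with STAR 2.5.2b, counted fragments per gene with featureCounts of Subread 1.5.0-p1 and deposited raw counts for 24454 genes with a gene length. How fragments matching several genes were handled is not given in the sources used here. Rows without a gene name numbered 2 and held 7.38e-05% of counts, and were left out.

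From these counts, edgeR 4.0.16 (R 4.3.3) was run with TMM factors, filterByExpr and the robust quasi-likelihood test of genotype, and p-values were adjusted over 15543 genes by the Benjamini-Hochberg method. Calls needed an adjusted p below 0.05 and a fold change over 2. CPM used a pseudocount of 1 before log2. Across genes the biological coefficient of variation had a median of 14.9%. The fit was tested on simulated data. The members and lists were chosen with earlier results of these data known. In the list of signals the symbol Atrn was corrected after the counts were seen, and *Asip* was not analysed here. Genes named are the 10 pigment genes, from each list the 3 most abundant and the called genes (at most 5 by fold), the 10 most alike genes, *Zfp36* and marks of sex. The lists of hair keratins, inner root sheath, bulge and other cell types are given as counts alone. *Kit*, *Sox10*, *Pax3*, *Mlph*, *Hgf*, *Fgf2*, *Pomc*, *Shh*, *Msx1* and the genes overlapping pigment genes fall outside this rule and were added after their values were seen, as were the ratios to *Mitf* and to hair measures, the hair matrix mean as a hair measure and the GENCODE lengths. Gene positions and exons are from GENCODE vM21 (GRCm38). Alternatives were DESeq2 1.42.0, DESeq2 size factors, upper-quartile factors, limma-voom (limma 3.58.1), a minimum of 10 counts per library, no filter, a replicate block, glmTreat, a hair or Y-linked term, and leaving out libraries.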

Additional observations from a re-analysis of the deposited data

How the results depend on the processing

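Across DESeq2 size factors, upper-quartile factors, DESeq2, limma-voom, no filter and at least 10 counts in every library, between 1064 and 1584 genes were called, against 1292 in edgeR, and 7 of 9 (*Gpr143* not tested at 10 counts) to 9 of 10 pigment genes. No source used here says that the replicate numbers pair the mice. Libraries with the same number were not alike in their deviations from the group means (r -0.19 to 0.085, 0 of 5 best with its own number). With the replicate block 983 genes and 9 pigment genes were called. With the hair shaft mean as a covariate 8 genes and 0 pigment genes were called (2164 genes and 1 pigment gene with an unadjusted edgeR p below 0.05). With the Y-linked term 0 and 0 were called (3382 and 2 unadjusted). Without WT 1 and WT 3, 526 genes and 4 pigment genes were called. With glmTreat, which tests for a fold over 2 itself, 0 and 0 were called (577 and 2 unadjusted in edgeR). Leaving out 1 library at a time gave 839 to 1521 genes and 4 to 9 pigment genes. The lowest were 839 genes without WT replicate 3, and 4 pigment genes without *Zfp36*ΔARE replicate 2 and 5 without WT replicate 2 or *Zfp36*ΔARE replicate 5. *Tyr*, *Mlana* and *Gpr143* were called in 10 of 10 of these fits, *Tyrp1* and *Slc45a2* in 9, *Pmel* and *Slc24a5* in 5, *Oca2* in 4, *Dct* in 3 and *Mitf* in 0. No alternative turned the direction of a pigment gene. The causes were not tested. The difference in the mean log2(CPM + 1) of the 10 genes was 1.01 to 1.44 over the libraries left out and over other pseudocounts and scalings. Counts of 8 to 147 per library limit the precision for *Gpr143*.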

Other observations

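Other genes of the table were ranked by how closely they followed the 10 pigment genes from mouse to mouse inside the groups. Deviations of log2(CPM + 1) from the group means were compared with the mean deviation of the pigment genes for 13681 genes that averaged 50 or more normalized counts. The 10 with the highest r were *Kif14* (r = 0.98), *Rad54l*, *Trpm1* (r = 0.97), *Atad2*, *Poc1a*, *Bub3*, *Fras1*, *Prr11*, *Top2a* and *Cps1* (r = 0.95), over 10 libraries and as a description. KIF14 is a kinesin of dividing cells, TOP2A the topoisomerase of dividing cells, BUB3 a spindle checkpoint protein and RAD54L a recombination protein. *Trpm1* was the only gene of these 10 that was called between the genotypes. The others had log2 fold changes of 0.11 to 0.32 and did not pass the test, for example *Top2a*, which averaged 5070.4 ± 938 and 6328 ± 884 normalized counts in WT and knockin skin (adjusted p = 0.0959, edgeR). Of the other pathway genes, *Msx1* (r = 0.87, rank 134), *Shh* (r = 0.83, rank 296), *Mc1r* (r = 0.81, rank 363) and *Lef1* (r = 0.81, rank 371) stood highest in this order. *Slc7a11* (r = 0.20) and *Gpnmb* (r = 0.35) stood lower.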
